A study of Mus musculus with 21 samples.

Results

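The genes described here are 40 genes of glycolysis and of the response to low oxygen, followed in inflammatory monocytes (IMs) from mouse bone marrow (BM) and in tumor inflammatory monocytes (TIMs) from 2 models of lung squamous carcinoma. They were taken by gene symbol from a list drawn up with earlier results of these data known, by a rule that uses no measured value, and all 40 were found among the 23420 gene symbols of the count table. By role, 5 carry glucose or lactate across membranes, 12 act in the first steps of glycolysis, 8 act in the later steps or set the fate of pyruvate, 3 belong to the oxygen sensor, and 12 are known to respond to hypoxia-inducible factor (HIF).

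The series holds RNA-Seq of 21 libraries of sorted IMs in 5 groups. LN2E1 primary tumor TIMs (n = 5) and LN2E1 lymph node TIMs (n = 5) came from FVB mice that had received 500000 cells of the KAL-LN2-E1 line, a metastatic derivative of the KAL squamous line, by orthotopic injection in the lung. LN4K1 lung TIMs (n = 5) came from lungs of DBA2 mice after intravenous injection of 300000 cells of the LN4K1 line, so their lesions are experimental metastases seeded from blood. FVB BM IMs (n = 3) and DBA2 BM IMs (n = 3) came from naive mice without tumors. IMs were enriched with a monocyte kit and sorted on CD45, CD11b, Ly6C, Ly6G and viability. The labels name no engineered allele in a host and no drug in any group. Age and sex are not in the labels. Each tumor model is 1 cell line, and the controls come from BM, not from lung or lymph node of healthy mice, so the effect of tissue and the effect of tumor cannot be told apart. Strain, cell line, route and tissue likewise change together between the 2 models.

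In glycolysis, glucose enters through GLUT transporters, is trapped by hexokinases, split into trioses and oxidized to pyruvate with a gain of ATP. When lactate dehydrogenase turns pyruvate into lactate, monocarboxylate transporters move the lactate out, and pyruvate dehydrogenase kinases hold pyruvate back from the mitochondria. In normal oxygen, prolyl hydroxylases of the Egln family mark HIF subunits for destruction. In low oxygen, or in myeloid cells after inflammatory signals, HIF persists, pairs with ARNT and binds short DNA motifs near genes for glycolysis, vessel growth, mitophagy and collagen hydroxylation. Monocytes and macrophages are known for a strong use of glycolysis when they are activated.

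Levels are given as CPM, the share of a library's reads that fell on a gene after scaling between libraries, and levels of different genes are set side by side only as CPM per kilobase of exon. Total counts lay between 80772922 and 101043568 per library, so a count of 3, the limit taken for a count of 0, corresponded to 0.0268 to 0.0405 CPM. Such limits cover counting error only. Differences are log2 fold changes from edgeR's quasi-likelihood test with an approximate SE and with Benjamini-Hochberg adjusted p-values over all genes tested, and every adjusted p below comes from that test unless another is named. A gene "rose" or "fell" at an adjusted p under 0.05. A differentially expressed gene (DEG) met a stricter pair of thresholds, an adjusted p under 0.0001 with an absolute log2 fold change over 1. The study set this pair on shrunken fold changes from DESeq2, and here it is set on edgeR's values. Both LN2E1 comparisons used the same FVB BM IM libraries, so they are not independent of each other.

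All 10 genes of the sort and monocyte identity list were present in every group, while Ly6g, which the sort uses, was not analysed here. Siglecf, which the study's gate uses, was read under Siglec5, an older symbol of it in RefSeq, at 0 to 10.4 CPM over the 21 libraries. LN4K1 lung replicate 3 stood apart. Its members took 0.378% of all reads, against 0.537% to 0.562% in the other lung libraries. It was the lowest of its 5 libraries in 21 of the 38 members tested in that comparison and the highest in 9. Such a count was not particular to it, because primary tumor replicate 5 was the lowest in 25 of 40 members and lymph node replicate 3 in 21 of 38. Lung results are given with and without lung replicate 3. Among the identity genes, its reads for Csf1r (785 CPM) and Itgam (327 CPM) were the lowest of the lung group. Those for Lyz2 (115170 CPM), Cd14 (4251 CPM) and Ly86 (809 CPM) were the highest, and the rest lay between. Markers of other cells also moved with the groups. The summed level of 7 fibroblast genes was 378 to 1134 CPM in primary tumor TIMs, where Col3a1 led, against 12.2 to 108 CPM in those of the node and 5.25 to 9.16 CPM in BM IMs of FVB mice, which had no read for Pdgfra and Lum. The same sum was 1.81 to 43.1 CPM in lung TIMs, with 0.0898 to 1.39 CPM in BM IMs of DBA2 mice. The sum of 14 squamous genes lay between 67.8 and 121 CPM at the primary site and between 13.0 and 142 CPM in the node. In the lung it lay between 1.57 and 176 CPM, against at most 4.27 CPM in BM IMs. This sum was led by Cdh1 in LN2E1 TIMs (mean 52.5 CPM at the primary site and 62.4 CPM in the node) and by Krt19 in the lung (35.6 CPM). Of its keratins, Krt8, Krt18 and Krt19 were at most 1.07 CPM in BM IMs of either strain and lay between 4.85 and 18.5 CPM in primary tumor TIMs, between 19.6 and 63.6 CPM in 4 lung libraries and at most at 0.108 CPM in lung replicate 3, and at most at 1.02 CPM in the node. Krt5 and Krt6a, which mark squamous cells, were at 0 in FVB BM IM and lung TIM libraries and at most at 0.291 CPM elsewhere. The sum of 10 neutrophil genes went the other way in the LN2E1 model, where BM IMs held 3945 to 5006 CPM, primary tumor TIMs 1115 to 2189 CPM and lymph node TIMs 651 to 1116 CPM. It was 1498 to 2092 CPM in BM IMs and 1451 to 2335 CPM in TIMs of DBA2 mice. The genes of this sum did not move as one. In primary tumor TIMs S100a8, S100a9, Camp, Ltf and Ngp lay below FVB BM IMs, and Retnlg and Mmp9 overlapped them. Csf3r (451 to 686 CPM against 237 to 311 CPM), Mmp8 (534 to 754 CPM against 391 to 476 CPM) and Cxcr2 (13.2 to 73.8 CPM against 1.18 to 3.28 CPM) lay above them. Eosinophil genes separated BM IMs from TIMs, with a sum over 6 genes of 540 to 1147 CPM in FVB and 434 to 1114 CPM in DBA2 BM IMs against 1.63 to 3.56 CPM in primary tumor, 0 to 1.03 CPM in lymph node and 4.80 to 70.3 CPM in lung TIMs. The sum of 8 alveolar macrophage genes, led in BM IMs by Ear1, was 203 to 264 CPM in FVB BM IMs against 42.5 to 63.2 CPM in primary tumor and 56.3 to 117 CPM in lymph node TIMs, and 67.5 to 127 CPM in DBA2 BM IMs against 21.99 to 44.3 CPM in lung TIMs. Ear1 (109 to 146 CPM) and Ear2 (77.5 to 108 CPM) made up most of it in FVB BM IMs and were lower in LN2E1 TIMs. Pparg went the other way, from 1.75 to 3.76 CPM in FVB BM IMs to 8.89 to 17.4 CPM in primary tumor and 24.2 to 30.3 CPM in lymph node TIMs. Fabp4 was also higher in the node (8.11 to 21.3 CPM against 3.57 to 4.68 CPM) and overlapped in primary tumors. The sum of 8 proliferation genes was 1435 to 1666 CPM in BM IMs and 72.5 to 148 CPM in TIMs. The part of these cells and states in the results below was not tested.

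The first question was how the module changed between BM IMs and TIMs of each site. The module was higher in LN2E1 TIMs of both sites, among them the lactate exporter gene Slc16a3, the glucose transporter gene Slc2a1, Vegfa and Hif1a, and it moved far less in LN4K1 lung TIMs. In primary tumor TIMs 29 of 40 members rose, 3 fell (Gpi1, Egln1 and Bnip3l) and 8 did not pass the test, against 33.3% of all 14569 genes tested that rose and 28.6% that fell. In lymph node TIMs 25 of 40 rose and 15 did not pass, against 20.2% of 13273 genes that rose and 17.2% that fell. No member fell in the node, and none was lower at an unadjusted p under 0.05 or by DESeq2. In lung TIMs 8 of 38 tested members rose, 3 fell (Hk2, Hk3 and Pgam1) and 27 did not pass, against 13.9% of 13624 genes that rose and 11.0% that fell. Without lung replicate 3, 11 members rose and 6 fell, while 20.2% of all genes rose and 16.9% fell.

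At the stricter thresholds 17 members were DEGs in primary tumor TIMs (12.9% of all genes tested), 12 in lymph node TIMs (5.71%) and 1 in lung TIMs (2.97%), namely Slc2a1. All of these DEGs were higher in TIMs. The node count fell to 3 without FVB BM replicate 1 (2.41% of all genes) or replicate 2 (2.24%), and Slc2a1 was no longer a DEG in lungs without any 1 library other than lung replicate 3 (0.815% to 1.81%). With DESeq2's shrunken fold changes 20 members were DEGs in primary tumors (26.8% of all genes), 20 in lymph nodes (17.4%) and 7 in lungs (11.3%). Without lung replicate 3 the lung DEGs were Slc2a1, Hif1a, Hk2 and Hk3, the last 2 of them lower in TIMs, and 6.18% of all genes were DEGs. The median log2 fold change of the members was 1.09 in primary tumors, 1.22 in lymph nodes and 0.08 in lungs, beside 0.08, -0.04 and 0.03 for all genes tested. Setting genes at 0 in BM IMs to their lower bound cannot change the members' medians, because these bounds also lie above them. TIM and BM IM libraries did not overlap for 32 of 40 members in primary tumors, 23 of 40 in lymph nodes and 14 of 38 in lungs, beside 58.1%, 42.9% and 34.8% of all genes tested, so that the lung count was near its background. As a share of all reads, the members took 0.636% to 0.667% in FVB BM IMs, 0.920% to 1.09% in primary tumor TIMs, 0.893% to 1.20% in lymph node TIMs, 0.582% to 0.638% in DBA2 BM IMs and 0.378% to 0.562% in lung TIMs. In these bulk libraries, fewer cells with a transcript and less of it per cell cannot be told apart.

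**Figure D1:**
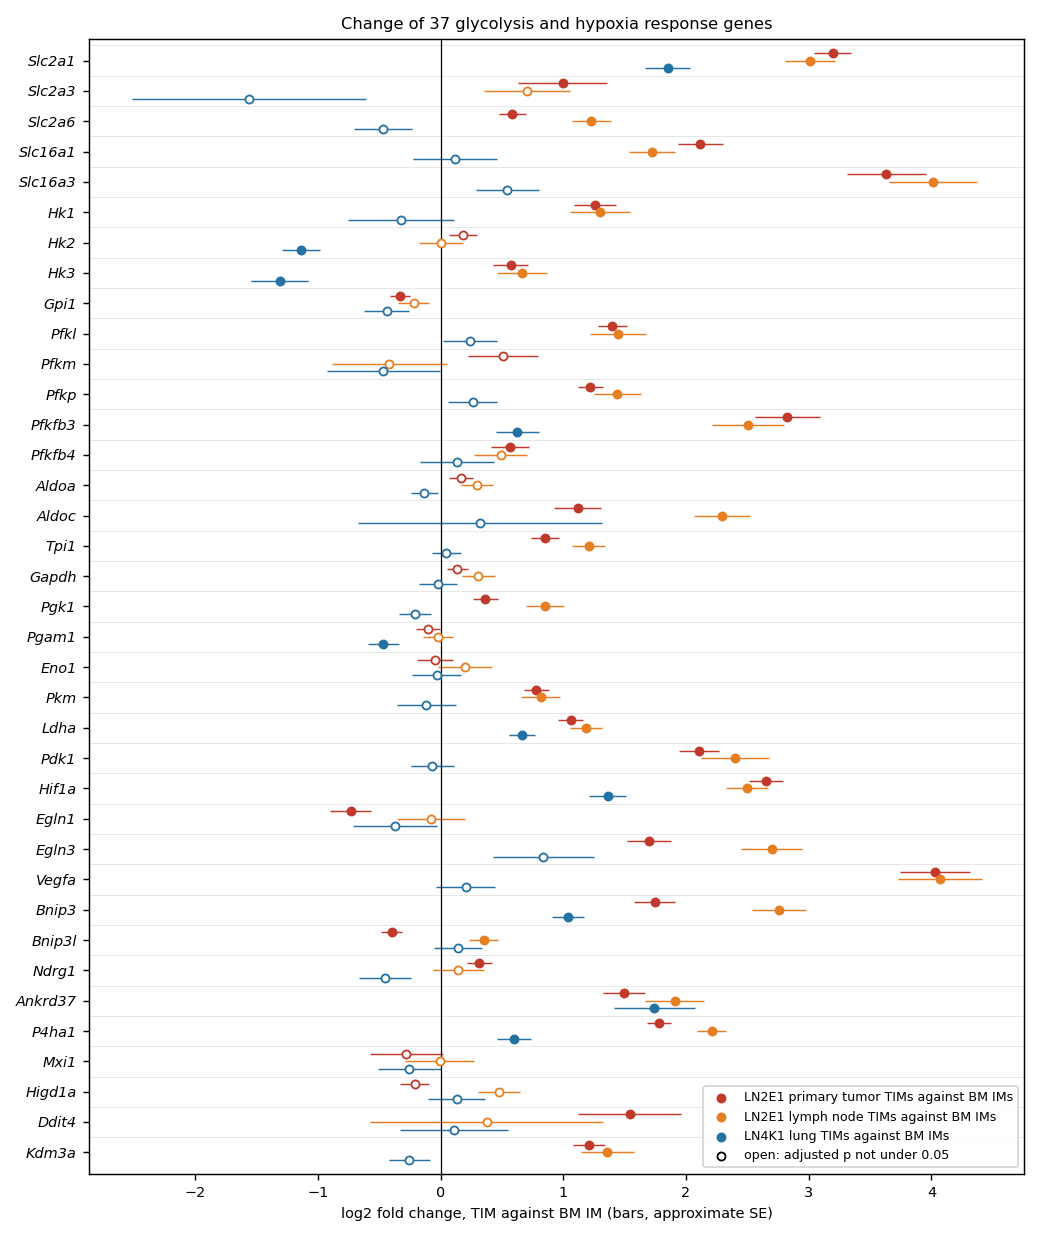
Log2 fold change (points) with its approximate SE (bars) of 37 members in TIMs against BM IMs of the same strain, with a colour for each comparison (red, LN2E1 primary tumor; orange, LN2E1 lymph node; blue, LN4K1 lung) and genes on the vertical axis ordered by role. Filled points passed an adjusted p of 0.05. Most red and orange points lie right of 0, while most blue points lie near or left of it. Eno2, Adm and P4ha2, near 0 counts in BM IMs, are left out.

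Higher in all 3 comparisons were 8 members of the 38 tested in all of them: Slc2a1, Pfkfb3, Eno2, Ldha, Hif1a, Bnip3, Ankrd37 and P4ha1. Among all 12782 genes tested in all 3, 1015 were higher in each (7.94%). These 8 members cover each role, from glucose entry to lactate, the HIF subunit itself and genes that HIF is known to induce. A further 14 rose at both LN2E1 sites and were not called in the lung: Slc2a6, Slc16a1, Slc16a3, Hk1, Pfkl, Pfkp, Aldoc, Tpi1, Pgk1, Pkm, Pdk1, Egln3, Vegfa and Kdm3a. Called in none of the 3 were Pfkm, Aldoa, Gapdh, Eno1, Mxi1 and Higd1a.

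The HIF core motif was sought in the DNA before the start of each member, not only of the 8 that rose in all 3 comparisons. The letters searched were ACGTG and GCGTG on either strand, in the 250 bases before each RefSeq transcription start (GRCm38.p6). A CACGTG reads as ACGTG on both strands and was counted on each. Starts were found for 37 members and not for Bnip3l, Slc2a3 and Ndrg1. A match was present before at least 1 start of 34 of the 37 (91.9%), of 58.8% of the genes tested in the primary tumor comparison and of 41.5% of all genes with a RefSeq start. Counted by window, the shares were 78.2%, 53.2% and 38.6%, with a median GC content of 61.6%, 59.2% and 52.4%, and GC content was not matched between these sets. The 3 members without a match were Eno2, Tpi1 and Gpi1. Eno2 is 1 of the 8, while the 6 members called in none of the 3 comparisons each had a match before at least 1 start. A match was thus not particular to members that rose, and its part in the changes was not tested. Such a match is a run of letters, not a measured binding site. Windows of 6 of the 8 genes are printed below in the direction of transcription to show how many matches they hold and where, with matches in capitals. They were chosen after the values were seen, and Hif1a (3 matches) and Pfkfb3 (1 and 3 matches at its 2 starts) are omitted for length. Ldha has a second start, whose window (chr7:46846832-46847081) holds 1 match and is not printed.
Slc2a1, chr4:119108495-119108744, plus strand, 2 matches: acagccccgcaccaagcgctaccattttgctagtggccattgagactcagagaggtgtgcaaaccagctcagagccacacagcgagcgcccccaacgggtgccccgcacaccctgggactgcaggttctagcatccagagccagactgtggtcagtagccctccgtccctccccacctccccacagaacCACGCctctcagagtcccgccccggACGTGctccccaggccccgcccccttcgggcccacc
Ldha, chr7:46845554-46845803, plus strand, 5 matches, of which 4 are in 2 CACGTG: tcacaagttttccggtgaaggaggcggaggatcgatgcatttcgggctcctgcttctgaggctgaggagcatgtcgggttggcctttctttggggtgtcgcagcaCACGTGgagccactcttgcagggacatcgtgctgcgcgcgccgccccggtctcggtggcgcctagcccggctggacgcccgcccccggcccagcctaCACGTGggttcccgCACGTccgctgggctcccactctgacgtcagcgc
Bnip3, chr7:138909507-138909756, minus strand, 5 matches: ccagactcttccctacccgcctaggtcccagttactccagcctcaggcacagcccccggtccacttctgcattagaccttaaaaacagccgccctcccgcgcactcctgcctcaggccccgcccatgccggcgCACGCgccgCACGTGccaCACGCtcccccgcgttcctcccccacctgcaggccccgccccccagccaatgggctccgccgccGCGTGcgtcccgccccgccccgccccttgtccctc
Ankrd37, chr8:45999851-46000100, minus strand, 4 matches: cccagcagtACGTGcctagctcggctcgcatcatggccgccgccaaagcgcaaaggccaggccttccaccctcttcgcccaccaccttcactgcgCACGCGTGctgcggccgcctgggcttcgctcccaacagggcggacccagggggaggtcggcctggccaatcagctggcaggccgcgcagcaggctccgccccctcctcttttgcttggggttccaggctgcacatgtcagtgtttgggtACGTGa
P4ha1, chr10:59323046-59323295, plus strand, 3 matches: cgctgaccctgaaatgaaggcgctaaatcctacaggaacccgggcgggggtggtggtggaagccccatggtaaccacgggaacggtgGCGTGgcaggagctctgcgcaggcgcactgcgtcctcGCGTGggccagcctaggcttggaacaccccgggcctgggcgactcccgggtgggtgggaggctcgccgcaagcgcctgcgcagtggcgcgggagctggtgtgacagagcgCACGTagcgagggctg
Eno2, chr6:124769674-124769923, minus strand, 0 matches: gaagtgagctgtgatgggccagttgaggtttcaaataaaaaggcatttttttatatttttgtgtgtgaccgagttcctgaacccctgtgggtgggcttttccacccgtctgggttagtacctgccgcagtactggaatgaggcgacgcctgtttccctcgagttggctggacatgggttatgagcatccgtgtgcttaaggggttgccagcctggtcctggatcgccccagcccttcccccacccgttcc

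The genes of glucose uptake and lactate export were higher in the LN2E1 model. All 5 rose in primary tumors, 4 of 5 in lymph nodes and 1 of 5 in lungs, with median log2 fold changes of 2.12, 1.72 and 0.12. Of all genes tested, 33.3% rose and 28.6% fell in primary tumors, 20.2% and 17.2% in lymph nodes, and 13.9% and 11.0% in lungs. The same shares stand beside the counts of the other roles below. Slc2a1 encodes GLUT1, the main glucose transporter of activated myeloid cells (chr4:119108711-119137983, plus strand, GRCm38). Its level was 49.6, 62.1 and 52.7 CPM in the 3 FVB BM IM libraries and 467, 538, 596, 522 and 419 CPM in primary tumor TIMs. In lymph node TIMs it was 449, 381, 334, 450 and 592 CPM. In the DBA2 mice it stood at 30.1, 29.7 and 31.8 CPM in BM IMs and at 133, 117, 80.6, 133 and 117 CPM in lung TIMs. Every TIM library was above every BM IM library of its strain, and no lung TIM library reached the LN2E1 TIMs. The difference was 9.15-fold in primary tumors (log2 3.19 ± 0.15, SE, adjusted p = 3.13e-07), 8.05-fold in lymph nodes (3.01 ± 0.20, adjusted p = 3.58e-06) and 3.60-fold in lungs (1.85 ± 0.18, adjusted p = 7.93e-05). Its exons overlap those of Gm12868 on the other strand, which reads without strand cannot separate.

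Slc16a3 encodes MCT4, the exporter that glycolytic cells use for lactate. Its level was 15.1, 14.2 and 31.4 CPM in FVB BM IMs. It reached 271, 226, 324, 255 and 205 CPM in TIMs of primary tumors and 222, 299, 323, 341 and 457 CPM in lymph node TIMs. The 10 LN2E1 TIM libraries lay far above the BM IMs, 12.4-fold in primary tumors (log2 3.63 ± 0.32, adjusted p = 1.31e-05) and 16.1-fold in lymph nodes (4.01 ± 0.36, adjusted p = 2.23e-05). In DBA2 BM IMs it was 35.4, 45.6 and 39.6 CPM, and in lung TIMs 77.1, 73.9, 32.9, 64.5 and 59.7 CPM. The lung groups overlapped because of replicate 3, and the difference did not pass (log2 0.54 ± 0.26, adjusted p = 0.16). Without that library it passed.

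Slc16a1 encodes MCT1, a transporter that carries lactate in either direction. It was 11.2, 13.3 and 13.3 CPM in FVB BM IMs, 38.8, 57.7, 51.8, 66.0 and 62.5 CPM in TIMs of primary tumors and 41.0, 39.8, 32.2, 50.2 and 44.4 CPM in lymph node TIMs. The groups did not overlap, and the gene rose 4.33-fold in primary tumors (log2 2.12 ± 0.18, adjusted p = 1.03e-05) and 3.30-fold in lymph nodes (1.72 ± 0.19, adjusted p = 8.44e-05). In the DBA2 mice it stood at 10.4, 10.3 and 10.9 CPM in BM IMs and 11.6, 17.1, 4.75, 14.7 and 12.04 CPM in lung TIMs, with overlap and a log2 difference of 0.12 ± 0.35 (adjusted p = 0.844). Slc2a6, which encodes a transporter of the GLUT family found on lysosomes, rose less, from 157 ± 18.8 CPM (SD, n = 3) to 239 ± 24.1 CPM in primary tumors and 368 ± 56 CPM in lymph nodes (n = 5 each). Slc2a3, the gene of the high-affinity GLUT3, rose in primary tumors only on the edge of the threshold (log2 0.99 ± 0.36, adjusted p = 0.0376), a call lost when FVB BM replicate 1, FVB BM replicate 2 or primary tumor replicate 2 was left out. Its highest library was primary tumor replicate 4 at 30.4 CPM against 11.99 to 15 CPM in the other 4. The same library also held the most Cxcr2 (73.8 CPM against 13.2 to 19.2 CPM) and Mmp9 (68.5 CPM against 5.37 to 9.99 CPM), genes of mature neutrophils. Of the other neutrophil genes, it was the highest for S100a8, S100a9, Retnlg, Csf3r and Ltf and not for Mmp8, Camp and Ngp. The part of neutrophils in its Slc2a3 level was not tested. In the lung, Slc2a3 read 0 in replicate 3 and 2.93 to 5.11 CPM in the others, against 7.61 to 10.1 CPM in DBA2 BM IMs, a log2 difference of -1.56 ± 0.95 that did not pass with that library (adjusted p = 0.275) and passed as lower without it.

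**Figure D2:**
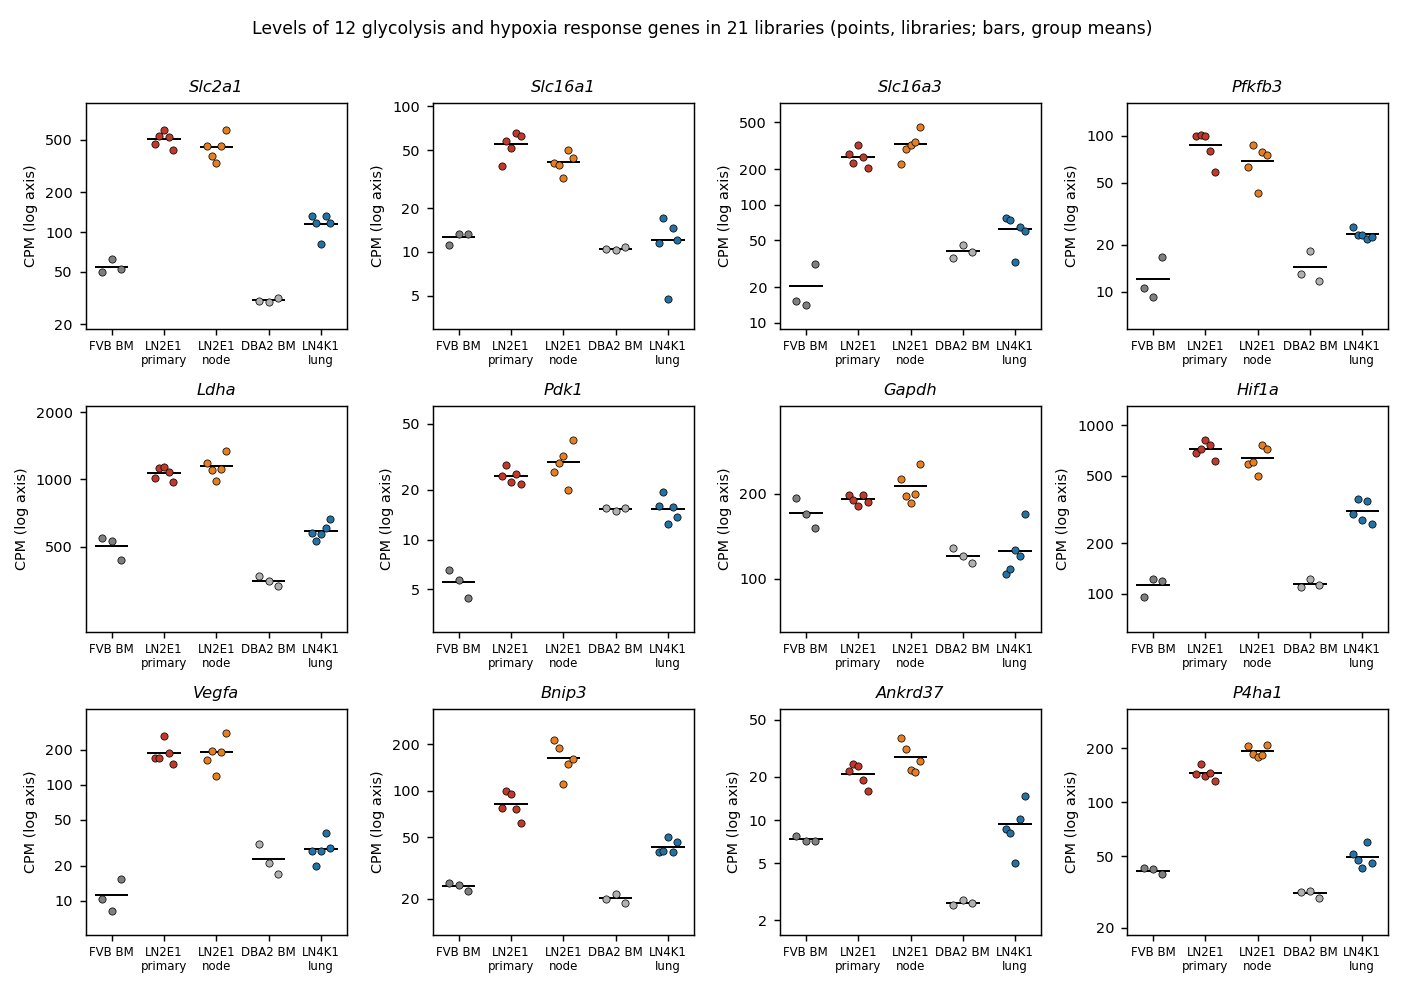
CPM on a log axis of 12 members in each of the 21 libraries, one panel per gene. Points are libraries, bars are group means, and each panel shows BM IMs of both strains and TIMs of the 3 sites. Slc2a1 and Hif1a stand above BM IMs in all TIM groups, Slc16a3 and Vegfa are high in the LN2E1 groups, and Gapdh differs little between BM IMs and TIMs of a strain.

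Of the 12 genes of glucose phosphorylation and the steps up to the trioses, 8 rose and 1 fell in primary tumors, 7 rose in lymph nodes, and 1 rose and 2 fell in lungs, near the 13.9% and 11.0% of all genes tested there. Median log2 fold changes were 0.71, 0.93 and -0.04. The largest rise was in Pfkfb3, whose enzyme makes the fructose bisphosphate that activates phosphofructokinase. It stood at 10.5, 9.30 and 16.6 CPM in FVB BM IMs, at 99.97, 101, 98.8, 79.5 and 58.7 CPM in TIMs of primary tumors and at 63.2, 87.0, 42.6, 78.3 and 74.9 CPM in lymph node TIMs. LN2E1 TIMs were above BM IMs without overlap, 7.09-fold in primary tumors (log2 2.83 ± 0.27, adjusted p = 1.94e-05) and 5.68-fold in lymph nodes (2.51 ± 0.29, adjusted p = 0.000125). In DBA2 mice Pfkfb3 was 13.0, 18.3 and 11.8 CPM in BM IMs and 26.1, 23.2, 23.1, 21.6 and 22.5 CPM in lung TIMs. All 5 lung libraries were above the BM IMs (log2 0.62 ± 0.18, adjusted p = 0.0286), but the call was lost when DBA2 BM replicate 1 or 3 or lung replicate 1 was left out.

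Aldoc encodes an aldolase that most tissues express far below Aldoa. It stood at 4.18, 5.47 and 5.58 CPM in FVB BM IMs, at 9.16, 11.7, 12.9, 12.5 and 9.73 CPM in TIMs of primary tumors and at 30.1, 25.1, 25.9, 19.9 and 23.6 CPM in lymph node TIMs. The 3 groups did not overlap, with the node highest, and the rise was 2.17-fold in primary tumors (log2 1.12 ± 0.19, adjusted p = 0.000733) and 4.90-fold in lymph nodes (2.29 ± 0.23, adjusted p = 4.69e-05). DBA2 BM IMs had 2.11, 2.79 and 3.77 CPM and lung TIMs 4.45, 4.10, 0.0135, 5.54 and 4.95 CPM. Replicate 3 had 1 read for this gene while its 4 companions all exceeded the BM IMs. The group gave no call with it (log2 0.32 ± 0.99, adjusted p = 0.85) or without it (0.64 ± 0.26, adjusted p = 0.0816).

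The other genes of these steps are given by group. Hk1, the hexokinase of most tissues, rose 1.26 ± 0.17 on the log2 scale in primary tumors (adjusted p = 0.000168) and 1.30 ± 0.24 in lymph nodes (adjusted p = 0.00228). Hk2, the hexokinase usually named as the HIF-induced one, did not move with the rest. It stood at 75.3 ± 7.55 CPM in FVB BM IMs, at 86.8 ± 8.60 CPM with primary tumors and at 75.5 ± 15.6 CPM with node metastases (SD, n = 3, 5 and 5), with adjusted p-values of 0.197 and 0.993. In lung TIMs Hk2 fell by 1.14 ± 0.15 on the log2 scale (adjusted p = 0.000583), from 122 ± 15.6 CPM to 58.4 ± 9.36 CPM. Hk3, a hexokinase of myeloid cells, rose in primary tumors (log2 0.57 ± 0.14, adjusted p = 0.00577) and in lymph nodes (0.66 ± 0.20, adjusted p = 0.0283) and fell in lungs by 1.31 ± 0.23 (adjusted p = 0.00302), the 1 member called in opposite directions in the 2 models. The lymph node call on Hk3 was lost when FVB BM replicate 1 or 2 or lymph node replicate 4 or 5 was left out.

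Of the phosphofructokinases, Pfkl and Pfkp rose together by 1.4 ± 0.12 and 1.22 ± 0.10 in primary tumors and by 1.45 ± 0.23 and 1.44 ± 0.19 in lymph nodes, on the log2 scale. The muscle form Pfkm stayed between 1.42 and 11.6 CPM and was not called. Pfkfb4, the second fructose bisphosphate kinase gene of the module, rose in primary tumors (0.57 ± 0.15, adjusted p = 0.0101) and did not pass in lymph nodes (0.49 ± 0.22, adjusted p = 0.105). Tpi1, which interconverts the trioses, rose by 0.85 ± 0.11 and 1.21 ± 0.13, whereas Gpi1, which isomerizes glucose phosphate, fell by 0.33 ± 0.08 in primary tumors (adjusted p = 0.00607). Aldoa gave 0.16 ± 0.10 and 0.29 ± 0.13, with adjusted p-values of 0.174 and 0.11.

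The 8 genes of the later steps and of pyruvate use showed 5 that rose in primary tumors and the same number in lymph nodes, with 2 that rose and 1 that fell in lungs. Median log2 fold changes were 0.57, 0.83 and -0.05. Gapdh, the dehydrogenase often used to scale expression, was 192, 170 and 152 CPM in FVB BM IMs, 198, 190, 181, 199 and 187 CPM in TIMs of primary tumors and 226, 196, 185, 199 and 255 CPM in lymph node TIMs. The groups overlapped in primary tumors and in lymph nodes, with log2 differences of 0.14 ± 0.09 (adjusted p = 0.202) and 0.31 ± 0.14 (adjusted p = 0.109). DBA2 BM IMs had 128, 121 and 114 CPM of it and lung TIMs 104, 108, 127, 121 and 169 CPM (-0.02 ± 0.16, adjusted p = 0.941). Of its exonic 50-base stretches, 25.1% also occur in other genes, so its count is uncertain where reads could be shared.

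Ldha encodes the lactate dehydrogenase subunit that favors lactate formation. It was 544, 530 and 435 CPM in FVB BM IMs, 1009.7, 1122, 1133, 1083 and 970.0 CPM in TIMs of primary tumors and 1177.5, 1105.5, 981, 1110.4 and 1333 CPM in lymph node TIMs. All 10 LN2E1 TIM libraries exceeded the BM IMs, 2.09-fold in primary tumors (log2 1.06 ± 0.10, adjusted p = 1.82e-05) and 2.27-fold in lymph nodes (1.18 ± 0.13, adjusted p = 8.25e-05). In the lung model it was 371, 350 and 333 CPM in BM IMs and 575, 528, 567, 604 and 662 CPM in lung TIMs, again without overlap (1.59-fold, log2 0.66 ± 0.11, adjusted p = 0.00164).

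Pdk1, whose kinase switches off pyruvate dehydrogenase, separated the models. It was 6.55, 5.72 and 4.45 CPM in FVB BM IMs, 24.1, 28.4, 22.2, 24.8 and 21.6 CPM in TIMs of primary tumors and 25.4, 28.9, 32.0, 19.9 and 40.2 CPM in lymph node TIMs. It rose 4.3-fold in primary tumors (log2 2.10 ± 0.16, adjusted p = 5.05e-06) and 5.26-fold in lymph nodes (2.40 ± 0.28, adjusted p = 0.000114). In DBA2 mice the BM IMs were already at 15.5, 14.96 and 15.5 CPM, and lung TIMs were at 15.99, 19.3, 12.3, 15.8 and 13.6 CPM, on both sides of the BM IMs (-0.07 ± 0.18, adjusted p = 0.822).

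Eno2 encodes the enolase best known from neurons. It had 2 reads at most in any BM IM library and was 0 in all 3 DBA2 ones. It reached 10.1, 10.6, 11.7, 9.01 and 5.45 CPM in TIMs of primary tumors, 10.6, 6.04, 4.62, 7.12 and 11.3 CPM in those of the lymph node and 1.01, 0.433, 1.54, 1.096 and 0.959 CPM in lung TIMs. Against a limit of 3 counts per BM IM library, it was at least 308-fold higher in primary tumors, at least 260-fold higher in lymph nodes and at least 32.7-fold higher in lungs (adjusted p = 1.03e-06, 2.83e-05 and 0.00103). Eno1, the common enolase, was not called (12.7 ± 2.20 CPM in FVB BM IMs and 12.5 ± 0.957 CPM in primary tumor TIMs), but 26% of its 50-base stretches are shared with other genes, above all Eno1b. Pkm, the pyruvate kinase of most tissues, rose by 0.78 ± 0.10 and 0.81 ± 0.16 on the log2 scale at the LN2E1 sites, and Pgk1, the first ATP-yielding kinase, by 0.37 ± 0.10 and 0.85 ± 0.16. Pgk1 shares 53.9% of its 50-base stretches with other genes. Pgam1, a mutase, gave -0.11 ± 0.10 and -0.02 ± 0.12 at the LN2E1 sites and fell by 0.47 ± 0.12 in lungs (adjusted p = 0.0233), a call lost without DBA2 BM replicate 1 or 2 or lung replicate 2.

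Of the 3 oxygen sensing genes, Hif1a and Egln3 rose at both LN2E1 sites and Egln1 fell in primary tumors, while Hif1a alone was called in lungs. Hif1a, the oxygen-labile subunit of HIF (chr12:73901375-73947530, plus strand), was 95.9, 122 and 120.1 CPM in FVB BM IMs, 685, 718, 812, 765 and 611 CPM in TIMs of primary tumors and 589, 605.5, 501, 763 and 726 CPM in lymph node TIMs. Every LN2E1 TIM library was several times above every BM IM library, 6.28-fold in primary tumors (log2 2.65 ± 0.14, adjusted p = 5.39e-07) and 5.65-fold in lymph nodes (2.50 ± 0.17, adjusted p = 4.18e-06). In the lung model Hif1a was 109.7, 122 and 113 CPM in BM IMs and 298, 364, 275, 357 and 261 CPM in lung TIMs, also without overlap (2.57-fold, log2 1.36 ± 0.15, adjusted p = 0.000188). These values are of the transcript, and HIF protein was not measured in these libraries.

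Egln3, a prolyl hydroxylase gene that HIF itself is known to induce, was 3.27, 3.62 and 3.45 CPM in FVB BM IMs, 11.5, 13.3, 11.2, 11.9 and 8.89 CPM in TIMs of primary tumors and 25.3, 17.3, 19.1, 27.9 and 22.0 CPM in lymph node TIMs. The 3 groups did not overlap, and it rose 3.25-fold in primary tumors (log2 1.70 ± 0.18, adjusted p = 3.22e-05) and 6.49-fold in lymph nodes (2.70 ± 0.25, adjusted p = 2.59e-05). In the lung model Egln3 was 1.91, 1.23 and 1.18 CPM in BM IMs and 3.72, 1.404, 2.36, 2.36 and 3.74 CPM in lung TIMs, with overlap through lung replicate 2 (0.84 ± 0.41, adjusted p = 0.175). Egln1, the hydroxylase that acts on HIF in most cells, fell in primary tumors by 0.73 ± 0.17 on the log2 scale (adjusted p = 0.00387), from 11.5 ± 1.83 CPM to 6.99 ± 0.884 CPM, and was 10.9 ± 2.69 CPM in lymph node TIMs (-0.08 ± 0.28, adjusted p = 0.855).

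Of the 12 HIF-responsive genes, 9 rose and 1 fell in primary tumors, 7 rose in lymph nodes and 3 of the 10 tested rose in lungs. Median log2 fold changes were 1.52, 1.63 and 0.14. Vegfa, the vascular growth factor (chr17:46016993-46032369, minus strand), had the largest fold change at both LN2E1 sites among members with reads in all FVB BM IM libraries. It was 10.4, 8.16 and 15.3 CPM in FVB BM IMs, 168, 169.9, 263, 186 and 149 CPM in TIMs of primary tumors and 162, 196, 119, 193 and 282 CPM in lymph node TIMs. The lowest LN2E1 TIM library was well above the highest FVB BM IM library, and the rise was 16.3-fold in primary tumors (log2 4.03 ± 0.29, adjusted p = 3.18e-06) and 16.8-fold in lymph nodes (4.07 ± 0.34, adjusted p = 1.43e-05). BM IMs of DBA2 mice had 31.0, 21.2 and 17.0 CPM and lung TIMs 26.8, 20.1, 26.8, 38.1 and 28.3 CPM, which overlapped (0.20 ± 0.24, adjusted p = 0.599).

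Bnip3, a mitophagy receptor of the outer mitochondrial membrane, was 25.4, 24.7 and 22.5 CPM in FVB BM IMs, 77.0, 100.2, 95.4, 76.8 and 61.6 CPM in TIMs of primary tumors and 212, 188, 111, 149 and 160.0 CPM in lymph node TIMs. All 3 groups were separate, and it rose 3.35-fold in primary tumors (log2 1.74 ± 0.17, adjusted p = 1.91e-05) and 6.77-fold in lymph nodes (2.76 ± 0.22, adjusted p = 1e-05). In DBA2 mice it was 20, 21.6 and 18.8 CPM in BM IMs and 40.02, 40.9, 50.3, 40.2 and 46.8 CPM in lung TIMs, without overlap (2.05-fold, log2 1.04 ± 0.13, adjusted p = 0.000384). Of its 50-base stretches 47.2% occur in other genes. Its relative Bnip3l fell by 0.40 ± 0.09 in primary tumors (adjusted p = 0.00314) and rose by 0.35 ± 0.12 in lymph nodes (adjusted p = 0.0375), and the second call was lost in 5 of 8 fits that each left out 1 library, namely FVB BM replicate 1, 2 or 3 or lymph node replicate 2 or 4.

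P4ha1 encodes the main catalytic subunit of collagen prolyl hydroxylase. It was 42.8, 42.4 and 39.7 CPM in FVB BM IMs, 144, 164, 141, 146 and 131 CPM in TIMs of primary tumors and 205, 186, 179, 185 and 208 CPM in lymph node TIMs. The replicates were tight, the 3 groups did not overlap, and the rise was 3.43-fold in primary tumors (log2 1.78 ± 0.10, adjusted p = 6.37e-07) and 4.62-fold in lymph nodes (2.21 ± 0.12, adjusted p = 8.64e-07). In the lung model P4ha1 was 31.8, 32.0 and 29.3 CPM in BM IMs and 51.5, 47.6, 42.9, 59.9 and 46.0 CPM in lung TIMs (0.60 ± 0.14, adjusted p = 0.0118), and the call was lost without DBA2 BM replicate 3. P4ha2, the gene of a second such subunit, was at most 0.459 CPM in FVB BM IMs, where 1 of 3 libraries read 0. It was 3.87, 11.9, 5.97, 9.14 and 9.89 CPM in primary tumor TIMs (adjusted p = 0.00212) and 0, 0.874, 1.64, 1.96 and 3.69 CPM in lymph node TIMs (adjusted p = 0.233). Both subunits are also made by fibroblasts, and the fibroblast sum was highest in the primary tumor group and lower in the node. Its part in these values was not tested.

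Ankrd37 encodes a small ankyrin repeat protein and is a known HIF target. It was 7.75, 7.20 and 7.19 CPM in FVB BM IMs, 22.1, 24.7, 23.9, 19.0 and 15.9 CPM in TIMs of primary tumors and 37.3, 31.4, 22.4, 21.6 and 25.6 CPM in lymph node TIMs. TIMs of both sites were above BM IMs, 2.82-fold (log2 1.5 ± 0.17, adjusted p = 6.01e-05) and 3.75-fold (1.91 ± 0.24, adjusted p = 0.000205). In DBA2 mice it was 2.55, 2.76 and 2.64 CPM in BM IMs and 8.63, 8.18, 4.98, 10.3 and 14.7 CPM in lung TIMs, without overlap (3.34-fold, log2 1.74 ± 0.33, adjusted p = 0.00426). Its exons overlap those of Lrp2bp and Ufsp2 on the other strand.

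Adm, the gene of the vasodilator peptide adrenomedullin, had no reads in any of the 6 BM IM libraries. It was 1.58, 3.99, 1.93, 3.42 and 3.83 CPM in TIMs of primary tumors, 0, 2.03, 0.273, 2.30 and 0.261 CPM in those of the lymph node and 0.0464, 0.0317, 0, 0.0517 and 0.413 CPM in lung TIMs. Against a limit of 3 counts per BM IM library, this was at least 96.8-fold higher in primary tumors (adjusted p = 2.83e-05) and at least 31.9-fold higher in lymph nodes (adjusted p = 0.0298). The lymph node call was lost in 5 of 8 fits that each left out 1 library, the same libraries as for Bnip3l, and 1 lymph node library read 0. In lungs Adm did not pass the filter on low counts and was not tested. Kdm3a, a histone demethylase gene, rose by 1.21 ± 0.13 and 1.36 ± 0.22 at the LN2E1 sites on the log2 scale. Ndrg1, a stress-responsive gene, rose by 0.31 ± 0.10 in primary tumors (adjusted p = 0.0219) and Ddit4, the gene of an mTORC1 inhibitor, by 1.54 ± 0.42 (adjusted p = 0.00982), and neither passed in lymph nodes. Mxi1 and Higd1a, an antagonist of Myc and a mitochondrial protein, were not called in any of the 3 comparisons.

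The second question was whether lymph node TIMs differed from primary tumor TIMs of the same model. Of 40 members 9 were higher in the lymph node, none was lower and 31 did not pass, against 6.15% of 13488 genes that were higher and 5.55% that were lower. At an unadjusted p under 0.05, 3 members (P4ha2, Pfkm and Slc16a1) were lower in the node, and DESeq2 called P4ha2 lower. The genes that were higher cover several roles. Bnip3l was 112 to 130.2 CPM in TIMs of primary tumors and 178 to 217 CPM in lymph node TIMs, a log2 difference of 0.74 ± 0.08 (adjusted p = 0.000391). Aldoc was 9.16 to 12.9 CPM against 19.9 to 30.1 CPM (1.16 ± 0.15, adjusted p = 0.00122), Bnip3 61.6 to 100.2 CPM against 111 to 212 CPM (1.01 ± 0.18, adjusted p = 0.00541) and Egln3 8.89 to 13.3 CPM against 17.3 to 27.9 CPM (0.99 ± 0.17, adjusted p = 0.00438). Higd1a, Slc2a6, Pgk1, P4ha1 and Tpi1 were higher by 0.67 ± 0.12, 0.63 ± 0.12, 0.47 ± 0.11, 0.42 ± 0.08 and 0.35 ± 0.10 on the log2 scale. The 2 mitophagy receptor genes of the module were therefore both higher in the lymph node. Tpi1 (adjusted p = 0.0421) kept its call in only 2 of 10 fits that left out 1 library, those without lymph node replicate 3 or 4, and Pgk1 lost it without primary tumor replicate 4.

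By contrast, genes with the largest rise over BM IMs gave no call between the sites. Vegfa differed by 0.03 on the log2 scale (adjusted p = 0.95) and Slc2a1 by -0.19 (adjusted p = 0.466). Egln1 was higher in the node by 0.65 without passing (adjusted p = 0.0772), and P4ha2 lower by -2.31 ± 0.93 (adjusted p = 0.139). Libraries of the 2 sites did not overlap for 10 of 40 members, beside 14.4% of all genes tested. The fibroblast sum was lower in the node than in the primary tumor in every library. The endothelial sum was 52.9 to 71.7 CPM in primary tumor and 55.5 to 110.2 CPM in lymph node TIMs. Pecam1 made up most of it, with means of 49.0 CPM at the primary site and 75.4 CPM in the node. Its other genes did not move as one. Cdh5 reached 4.54 CPM in the node and 1.34 CPM at the primary site, while Emcn read 0 in every node library.

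**Figure D3:**
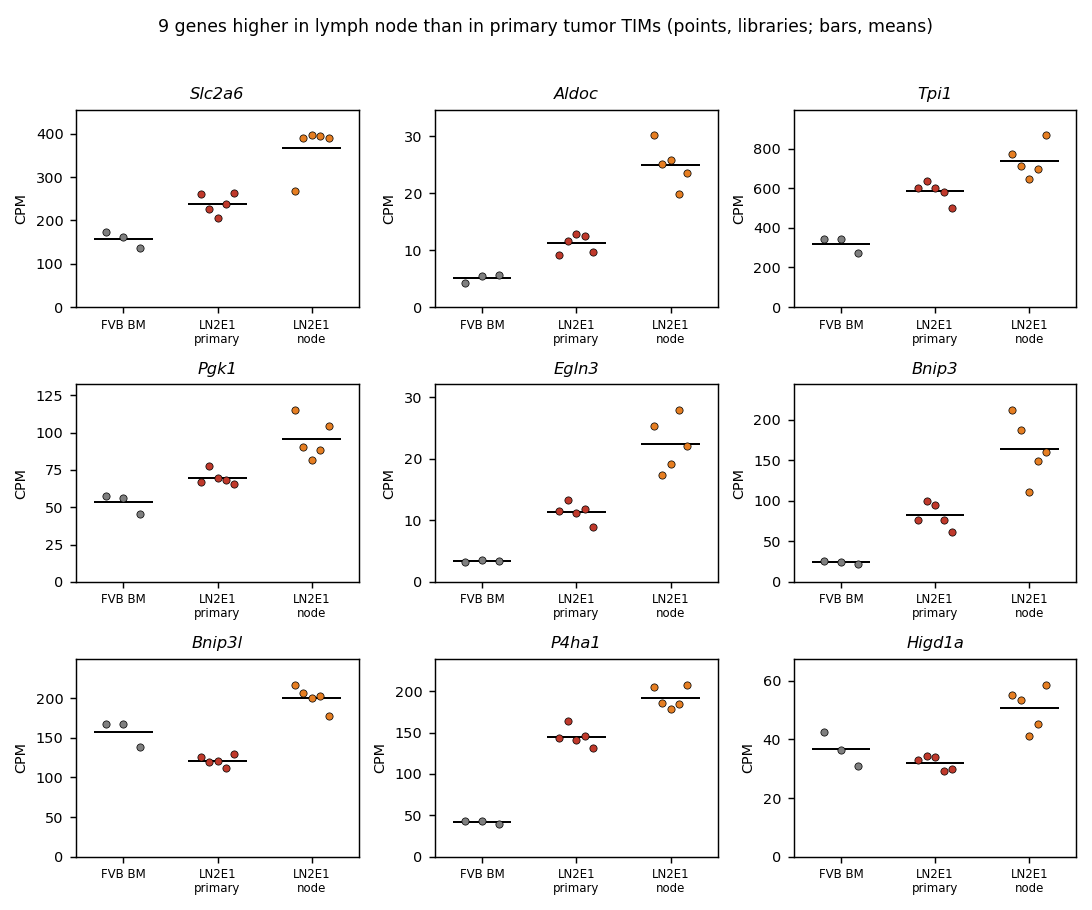
CPM (linear axes from 0) of the 9 members that were higher in LN2E1 lymph node than in primary tumor TIMs, in FVB BM IMs (n = 3) and in TIMs of each site (n = 5). Points are libraries and bars are means. Aldoc, Egln3 and Bnip3 step up from BM to primary tumor to node, and Bnip3l dips in the primary tumor.

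The third question was whether the change from BM IMs to TIMs differed between the 2 models. Tested as an interaction, the change in LN2E1 primary tumors was more positive than that in LN4K1 lungs for 21 of 40 members and more negative for none, against 13.2% and 13.3% of 15182 genes. At an unadjusted p under 0.05 the change of 1 member, Bnip3l, was more negative, and DESeq2 called none. By role, the 21 genes were 4 of 5 of transport, 7 of 12 of the first steps, 4 of 8 of the later steps, 1 of 3 of oxygen sensing and 5 of 12 of the HIF-responsive genes. The median difference was 0.90 on the log2 scale, beside 0.08 for all genes. Vegfa differed by 3.85 ± 0.37 (adjusted p = 2.5e-05), Slc16a3 by 3.11 ± 0.41 (adjusted p = 0.000215), Pfkfb3 by 2.22 ± 0.31 (adjusted p = 0.000288) and Pdk1 by 2.19 ± 0.23 (adjusted p = 3.7e-05). Genes that rose in both models were also among them, with 1.36 ± 0.22 for Slc2a1, 1.31 ± 0.20 for Hif1a, 1.20 ± 0.16 for P4ha1 and 0.73 ± 0.20 for Bnip3. The difference was not called for Ankrd37 (-0.23, adjusted p = 0.695), Egln3 (0.88, adjusted p = 0.116) or Gapdh (0.18, adjusted p = 0.499). Without lung replicate 3 it was called for 22 members as more positive, Slc2a3 added (2.25), and for Bnip3l as more negative (-0.34, adjusted p = 0.0338).

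**Figure D4:**
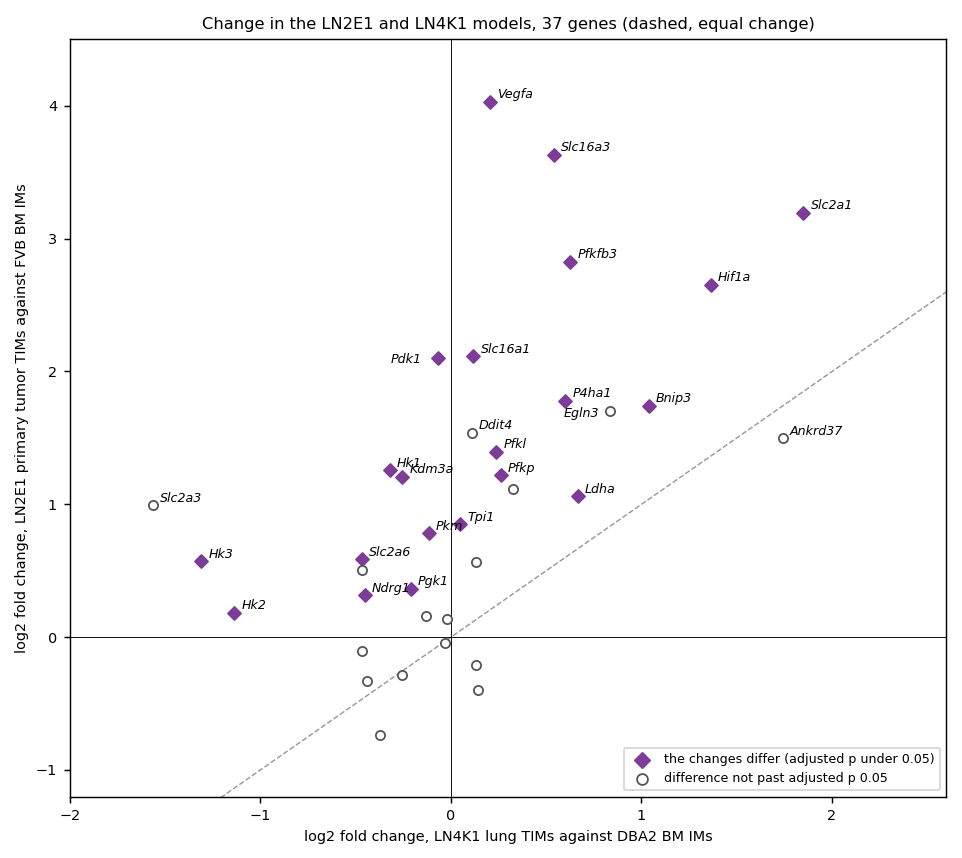
Log2 fold change of 37 members in LN4K1 lung TIMs against DBA2 BM IMs (horizontal axis) and in LN2E1 primary tumor TIMs against FVB BM IMs (vertical axis). Each point is a gene, filled diamonds were called different between the models, and the dashed line marks equal change. The filled points lie above the line, with Vegfa, Slc16a3 and Pdk1 far above it, and the open point of Ankrd37 lies close to it.

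Part of such a difference can sit in the BM IMs, so the strains were compared as well. Between DBA2 and FVB BM IMs, 7 of 37 tested members were higher in DBA2 and 10 lower, against 11.5% of 12905 genes that were higher and 9.57% that were lower. Higher in DBA2 were Pdk1 (log2 1.49 ± 0.19, adjusted p = 0.00178), Pfkfb4 (1.0, adjusted p = 0.0034), Vegfa (1.05, adjusted p = 0.0399), Ddit4, Ndrg1, Kdm3a and Hk2. Lower were Ankrd37 (-1.45 ± 0.21, adjusted p = 0.00277), Slc2a1 (-0.82, adjusted p = 0.00349), Ldha (-0.49, adjusted p = 0.0132), Gapdh (-0.48, adjusted p = 0.0176), Egln3, P4ha1, Pgam1, Mxi1, Gpi1 and Higd1a. With 3 libraries in each group, many of these calls were lost when 1 library was left out, those on Vegfa and P4ha1 in 5 of 6 such fits. Pdk1, Vegfa and Kdm3a thus started higher in DBA2 mice and had a smaller change there, whereas Slc2a1, Ldha and P4ha1 started lower in DBA2 mice and also had a smaller change there. In lung TIMs the mean level remained under that of primary tumor TIMs for each of these 6 genes, for example 28.0 ± 6.47 CPM against 187.5 ± 44.4 CPM for Vegfa and 116 ± 21.2 CPM against 508 ± 68.1 CPM for Slc2a1 (SD, n = 5 each). The TIMs of the 2 models were not tested against each other directly, because strain and tissue differ as well.

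Pairs of genes that share a step were compared within each library as the log2 ratio of reads per kilobase, with 0.5 added to each count, which does not depend on scaling between libraries. There were 12 pairs in 3 comparisons, and the exact two-sided permutation test over libraries of 5 against 3 can give no p below 0.0179, or 0.0321 after adjustment over the 36 tests. At that limit 10 ratios differed in primary tumors, 8 in lymph nodes and 2 in lungs, the latter Eno2 to Eno1 and Bnip3 to Bnip3l. Of the lactate transporter transcripts, both of which rose at the LN2E1 sites, Slc16a3 gained on Slc16a1. Slc16a3 to Slc16a1 stood at 1.26 in FVB BM IMs, 3.87 in primary tumor TIMs and 6.48 in lymph node TIMs (log2 difference 1.62 and 2.37), with 0.49 in lungs, which did not pass. The transcript ratio of Hk2 to Hk1 was 1.42 in FVB BM IMs, 0.657 in primary tumor TIMs and 0.568 in lymph node TIMs (-1.12 and -1.33). At these sites Hk1 rose and Hk2 was not called. Pfkfb4 to Pfkfb3 went from 8.28 to 1.71 and 2.01 (-2.27 and -2.04). Slc2a1 to Slc2a3 went from 14.4 to 67.5 and 69.9 (2.23 and 2.28).

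Among the hypoxia genes, Egln3 to Egln1 went from 0.409 in FVB BM IMs to 2.19 in primary tumor and 2.81 in lymph node TIMs, so that the order of the 2 hydroxylase transcripts per kilobase turned over. Bnip3 to Bnip3l went from 0.262 to 1.14 and 1.36 in the LN2E1 model and from 0.267 to 0.508 in lungs (log2 0.93). The ratio of Pfkp to Pfkl moved little, by -0.17, 0.01 and 0.03 in primary tumors, lymph nodes and lungs, with exact permutation p-values of 0.214, 1.0 and 0.893. In lungs the ratio of Aldoc to Aldoa was -0.77 with all libraries and 0.82 without replicate 3, so that its direction rests on that library. Without replicate 3, 7 lung ratios differed (exact permutation p = 0.0286, the smallest possible for 4 against 3, adjusted p = 0.0411), among them Hk2 to Hk1 at -1.13 and Slc2a1 to Slc2a3 at 3.23.

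**Figure D5:**
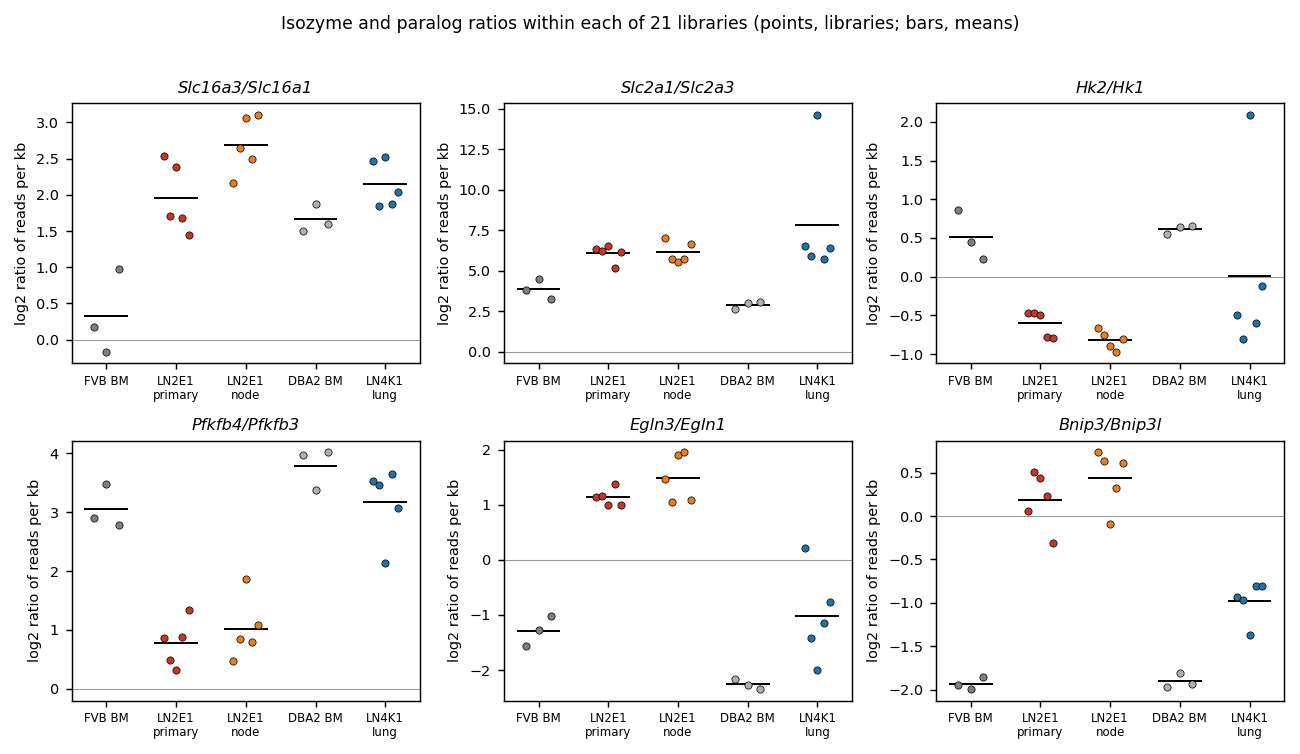
Log2 ratio of reads per kilobase for 6 gene pairs in each of the 21 libraries, by group. Points are libraries and bars are group means. Slc16a3/Slc16a1, Egln3/Egln1 and Bnip3/Bnip3l are higher, and Hk2/Hk1 and Pfkfb4/Pfkfb3 lower, in both LN2E1 TIM groups than in FVB BM IMs, while 1 lung library stands apart in Slc2a1/Slc2a3 and Hk2/Hk1.

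Other genes of the same pathways, outside the 40, were read for comparison. Of further glycolysis and pyruvate genes, 10 rose and 11 fell of 32 tested in primary tumors, 5 rose and 2 fell of 28 in lymph nodes, and 3 rose and 2 fell of 29 in lungs, with median log2 fold changes of -0.09, -0.10 and -0.05. The shares that rose (31.2%, 17.9% and 10.3%) were near those of all genes tested (33.3%, 20.2% and 13.9%). Of all genes, 28.6%, 17.2% and 11.0% fell. Eno3, the enolase best known from muscle, averaged 8.79 ± 1.151 CPM in FVB BM IMs, 91.8 ± 33.2 CPM in primary tumors and 252 ± 44.9 CPM in the node (SD, log2 3.36 ± 0.32 and 4.84 ± 0.21, adjusted p = 1.94e-05 and 3.09e-07). In lungs it rose by 1.36 ± 0.27 (adjusted p = 0.00561). Pdk3, a relative of Pdk1, rose in all 3 comparisons (1.09, 1.67 and 1.39), while Pgm2, a sugar phosphate mutase gene, rose by 0.88 and 1.44 at the LN2E1 sites and gave -0.03 in lungs (adjusted p = 0.9). Pdk2 rose in primary tumors (0.87, adjusted p = 0.00731) and gave 0.68 and 0.31 in lymph nodes and lungs without passing.

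Of further hypoxia response genes, 23 rose and 3 fell of 33 tested in primary tumors, 17 rose and 1 fell of 30 in lymph nodes, and 6 rose and 2 fell of 32 in lungs, with medians of 1.05, 1.04 and 0.10. The shares that rose were 69.7%, 56.7% and 18.8%, beside 33.3%, 20.2% and 13.9% of all genes tested. Bhlhe40, a transcriptional repressor gene induced by low oxygen and by cytokines, rose in all 3 (3.90, 4.08 and 2.52), as did Hilpda, a lipid droplet gene (1.82, 2.16 and 0.96). Arnt, the HIF partner, rose by 1.79 and 1.58 at the LN2E1 sites and gave 0.45 in lungs (adjusted p = 0.253). Cxcr4, a chemokine receptor gene that low oxygen is known to raise, fell in all 3, by 1.32, 1.1 and 2.1. The pentose phosphate pathway takes glucose phosphate away from glycolysis. Of its 7 genes none rose and 5 fell in primary tumors, where 28.6% of all genes tested fell. None rose and 4 fell in lymph nodes (17.2% of all genes fell), and 1 rose and 2 fell in lungs (11.0% fell). The pathway's entry enzyme G6pdx fell by 0.53 and 0.56 at the LN2E1 sites, and Tkt, its transketolase, fell in all 3 comparisons, by 0.60, 0.45 and 0.47. Pgls fell by 0.69 and 0.46 at the LN2E1 sites and Taldo1 by 0.44 in primary tumors, and neither passed in lungs.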

How the data were processed

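RNA-Seq was read in 21 libraries of sorted IMs (3 or 5 per group), grouped by their sample labels. The authors trimmed read pairs with BBDuk, aligned them to mm10 with BBMap, sorted them with SAMtools 1.8 and counted reads per gene with featureCounts 1.5.2 from Subread, and the deposited values are raw counts for 23420 symbols. Options of the counting step are not given in the sources used here. The library kit keeps no strand. The study's methods call replicates technical, so p-values measure the spread between these samples only.

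edgeR 4.0.16 (R 4.3.3) was run separately for each comparison, with TMM factors, a low-count filter (minimum 10 per library, 15 in total), the robust quasi-likelihood test and Benjamini-Hochberg adjustment over all genes tested. The SE is the absolute log2 fold change over the square root of F. CPM used TMM factors over all 21 libraries. The fits were tested on simulated counts. Gene spans and exon lengths came from GENCODE vM21 (GRCm38), promoter windows from RefSeq (GRCm38.p6). DESeq2 1.42.0 and limma 3.58.1 served alternatives and Python 3.11.15 the tables.

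Values in every library are given for the 14 DEGs with the largest fold change, and for Gapdh, Hif1a and Ldha. From each further list up to 4 genes past the test, with the largest change and a mean log2 CPM above 3, are named. Members, lists and tests were chosen with earlier results of these data known. Alternatives were DESeq2's size factors, 2 other low-count filters, all 5 groups in 1 fit, a block for the replicate number, DESeq2 with and without shrinkage of its fold changes, and fits that each omitted 1 library. Counts of libraries within a group differed by far more than sampling noise, and none appeared to be a repeat deposit of another.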

Additional observations from a re-analysis of the deposited data

Results flagged for a closer look

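In 11 of 116 sets of 5 TIM libraries, 1 library lay apart from its 4 companions by Dixon's criterion, which chance alone meets in about 1 of 20 sets. LN4K1 lung replicate 3 accounts for 6 of them. It was low for Slc2a6 (67.7 CPM, others 125 to 148), Pfkl (81.8 CPM, others 156 to 168), Aldoc (0.0135 CPM, others 4.10 to 5.54), Eno1 (7.90 CPM, others 11.4 to 12.7) and Pkm (721 CPM, others 1450 to 1633), and high for the mitophagy receptor gene Bnip3l (221 CPM, others 120 to 139). In LN2E1 primary tumors, replicate 4 was high for Slc2a3 (30.4 CPM, others 11.99 to 15) and Hk1 (203 CPM, others 182 to 188), and replicate 3 for Ddit4 (3.72 CPM, others 1.70 to 2.14). In lymph nodes, replicate 1 was low for Slc2a6 (268 CPM, others 391 to 397) and replicate 5 high for Pgam1 (295 CPM, others 235 to 247). What sets these libraries apart was not tested.

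The change from BM IMs to TIMs differed between LN2E1 primary tumors and LN4K1 lungs for 21 of 40 members by edgeR's interaction test. All differences were positive, that is, the change was more positive in LN2E1 primary tumors. On the log2 scale they were 3.85 for Vegfa, 3.11 for Slc16a3, 2.22 for Pfkfb3, 2.19 for Pdk1, 2.01 for Slc16a1, 1.90 for Hk3 and 1.59 for Hk1. They were 1.48 for Kdm3a, 1.36 for Slc2a1, 1.34 for Hk2, 1.31 for Hif1a, 1.20 for P4ha1, 1.18 for Pfkl and 1.07 for Slc2a6. The smallest were 0.97 for Pfkp, 0.91 for Pkm, 0.82 for Tpi1, 0.78 for Ndrg1, 0.73 for Bnip3, 0.60 for Pgk1 and 0.42 for Ldha. Hk2 differed because it fell in lungs without a call in primary tumors. The differences for Hk1, Pkm, Ldha and Ndrg1 lost their call in 5, 3, 7 and 7 of 16 fits that each left out 1 library. Strain, cell line, route and tissue cannot be told apart in these values.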

How the results depend on the processing

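Of 3795 values of single members under the alternatives, 3595 kept direction and side of the threshold, 156 lost the call, 44 gained it and none that was called changed sign. With DESeq2's size factors in place of TMM factors, the median shift in log2 fold change over all genes was at most 0.0552 in any comparison. Fits that left out 1 library gave these ranges: in primary tumors 27 to 30 members higher, 3 to 4 lower and 11 to 16 DEGs; in lymph nodes 22 to 27 higher and 3 to 11 DEGs; in lungs 6 to 11 higher, 2 to 6 lower and 0 to 4 DEGs. For the node against the primary tumor they gave 7 to 10 higher and 0 to 2 lower, for the strains 3 to 10 higher and 2 to 14 lower, and for the interaction 17 to 22 positive and 0 to 1 negative. The 11 DEGs of primary tumors came without FVB BM replicate 2, the 3 of lymph nodes without FVB BM replicate 1 or 2, and the 4 of lungs without lung replicate 3, while leaving out any other library of the lung comparison left 0. The isozyme ratios called fell to 0 in both LN2E1 comparisons whichever library was left out, because the exact test then has fewer splits, and ranged from 0 to 7 in lungs. The lung ratio of Aldoc to Aldoa ranged from -1.25 to 0.82, with the positive value without lung replicate 3.

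With all 5 groups in 1 fit, 1 member was lower in primary tumors and 6 were DEGs in lungs. Shares of all genes under that fit are not given here, so these counts cannot be set against them. DESeq2, with unshrunken or shrunken fold changes, gave 20 DEGs in lymph nodes (17.4% of all genes with either), 7 in lungs (11.5% and 11.3%) and 1 member lower in the node than in the primary tumor. Other causes of these shifts were not tested.

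Same-numbered libraries did not deviate together (correlations between -0.236 and 0.228 over the comparisons, and 1 of 5 lymph node libraries correlated best with its own number). With so few libraries per group, this cannot show whether same-numbered samples came from the same mice, and the labels do not say. With the replicate block, 25 members were higher and 0 lower in primary tumors, 23 higher in lymph nodes and 3 in lungs. DEGs numbered 0 in each. With the same block, 5 members were higher in the node than in the primary tumor, and 1 lung ratio differed. Shares of all genes with the block are not given here, so a change in the members cannot be told from a change in the whole test. Depth limits genes near 0 in BM IMs: the fold changes of Eno2 and Adm are lower bounds, and that of P4ha2 in the LN2E1 model rests on FVB BM libraries with 1, 45 and 0 reads.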
